A study of Felis catus with 6 samples.

Results

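Growth factors and morphogens are secreted proteins that tell cells of a mucosa to divide, to move, to lay down matrix or to form vessels. Each acts through a receptor on the receiving cell, and secreted antagonists, binding proteins and intracellular inhibitors limit the signal. In oral mucosa, ligands of the epidermal growth factor (EGF) receptor and WNT ligands are known for epithelial renewal and patterning, while the transforming growth factor beta (TGF-beta), platelet-derived growth factor (PDGF) and vascular endothelial growth factor (VEGF) families are known for their roles in stroma and vessels.

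The genes described here were 34 members of the WNT, TGF-beta, bone morphogenetic protein (BMP), fibroblast growth factor (FGF), PDGF, VEGF, angiopoietin, insulin-like growth factor (IGF), EGF and Notch families. They were selected by the start of their symbol from the study's list of genes that differed at least 2-fold between lesion and healthy mucosa, so measured values of this same contrast chose them. They made up 34 of 1929 identifiers with a usable symbol and of 21529 identifiers in all. All 34 reached 1 FPKM, a read density that is divided by transcript length and library size, in at least 3 of 6 libraries and were among the 13327 identifiers tested. Because the selection used the difference itself, the differences of the members are given as a description and not as a test of it. The choice by symbol also took in genes that are not growth factors, among them EGFL6 and EGFLAM, which are matrix proteins with EGF-like repeats, IGFN1, a muscle protein with immunoglobulin and fibronectin domains, and TGFB1I1, an adaptor of focal adhesions.

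RNA was sequenced from 3 cats with feline chronic gingivostomatitis (FCGS), a severe chronic inflammation of the oral mucosa, named Bart, Jerome and Sadie in the labels. Each cat gave 1 biopsy of inflamed mucosa (lesion) and 1 of adjacent healthy mucosa, so there were 3 libraries per tissue and the healthy samples came from diseased animals. According to the study's methods the cats had no teeth, had not responded to extraction, and received buprenorphine but no immunosuppressive drug or antibiotic when tissue was taken. The methods place the biopsies lateral to the palatoglossal folds, whereas the labels call the tissue gingival. The labels give no age or breed, and no treatment separates the groups. Summed FPKM ranged from 1382122 to 1903773 per library, 4688 to 4927 identifiers per library were listed at 0, and no file gives read totals, so the counting error of each value is unknown. The biopsies were of mixed content. Summed FPKM of 12 skeletal muscle markers was 33.22, 5739 and 4994 in the lesions of Bart, Jerome and Sadie and 8.202, 18.78 and 2451 in their healthy mucosa, and none of these markers passed the test below. In a whole biopsy, fewer cells of a type and less RNA per cell cannot be told apart.

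Of the 34 genes, 27 were higher in lesions on average and 7 were lower. The 328 rows with the strongest falls in the study's list were left out, so the lower side is incomplete and the split is not a balance of the pathways. The higher group held receptors and ligands of stroma and vessels (PDGFB, PDGFRB, TEK, KDR, VEGFC), TGF-beta family genes (INHBA, GDF10, GDF15, TGFB3, TGFBR2) and the WNT antagonist SFRP1. The lower group held the receptor EGFR and its ligand AREG, the ligands WNT10A and WNT5B, the receptor FZD6, and IGFBP2 and ANGPTL5. The median log2 difference was 1.62 for the higher members, beside 1.61 for the 2257 identifiers that were at least 2-fold higher, and -1.71 for the lower members, beside -1.73 for the 1640 that were at least 2-fold lower. The median over all identifiers tested was -0.07.

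Values below 1 FPKM were raised to 1 before log2 was taken, and lesion was compared with healthy mucosa by limma with Benjamini-Hochberg adjustment over all identifiers. Of the higher members, 1 (GDF10) passed an adjusted p of 0.05, where 5.31% of all identifiers did so in that direction. Of the lower members, 0 passed, where 6.61% of all identifiers did. With the cat as a block in the model, 17 higher and 2 lower members passed, against 12.2% and 11.1% of all identifiers. The higher ones were ANGPTL2, DLL4, FGF23, FGFR4, FLT3, FZD4, GDF10, INHBA, KDR, PDGFB, PDGFRB, SFRP1, SMAD6, TEK, TGFB3, TGFBR2 and VEGFC. The lower ones were EGFR and FZD6. Nothing is read from these counts about the members as a group, since all were selected on the same difference. The number of calls depended on which cats entered the fit, for the members and for all identifiers alike. In limma with no block, 7 higher and 2 lower members passed without the libraries of Bart, beside 7.77% and 8.25% of all identifiers. Without those of Jerome or of Sadie 0 members passed, as did 0 of all 13327 identifiers. With the block, 5 higher and 1 lower members passed without Bart, beside 3.99% and 3.75% of all identifiers. With the block in limma, 0 members passed without Jerome, beside 97 identifiers in all, and 0 without Sadie, beside 0 identifiers. GDF10 did not pass in any of 9 fits that left out 1 library or 1 cat, where its adjusted p in limma was 0.062 to 0.28.

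**Figure D1:**
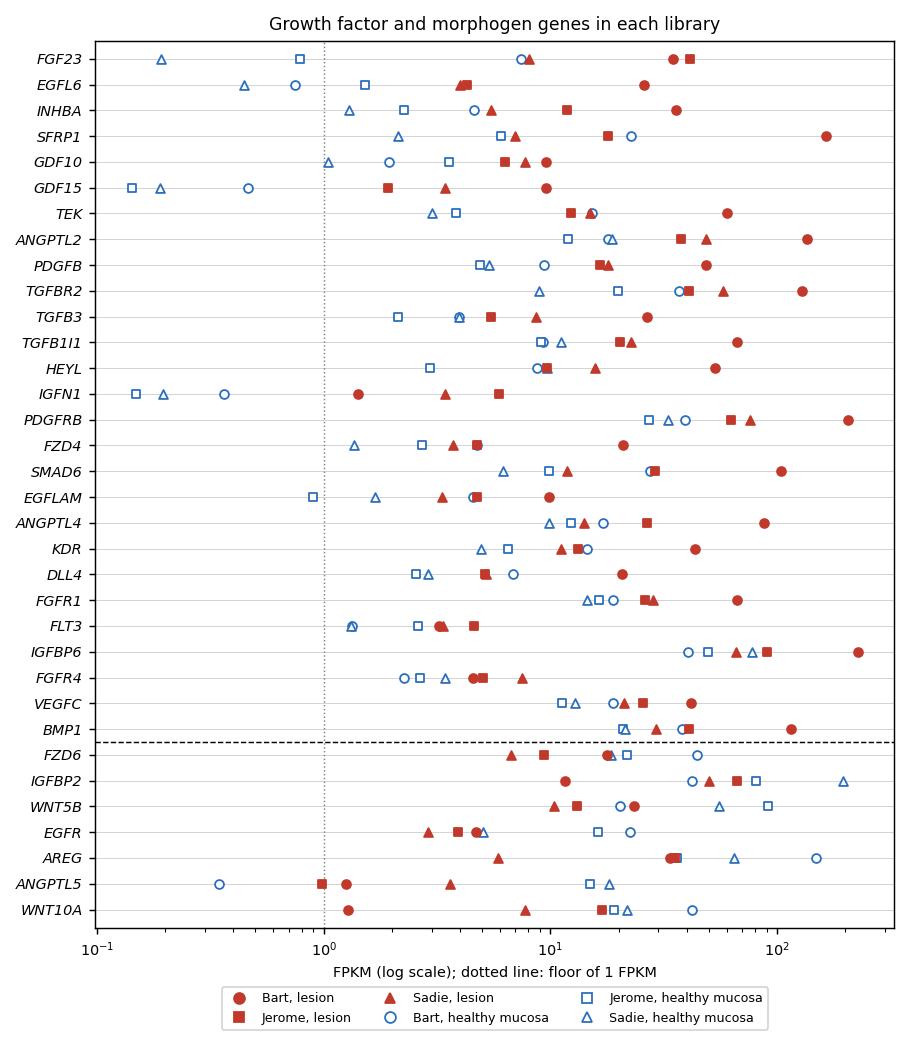
FPKM of each of the 34 genes (rows, ordered by mean log2 difference) in each library, on a log axis. Filled red symbols are lesions, open blue symbols healthy mucosa, and the symbol shape marks the cat. Genes above the dashed line were higher in lesions on average. The lesion of Bart is the highest lesion value in 23 of the 27 higher genes.

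The direction was shared by all 3 cats in 31 of 34 members, beside 91.5% of the identifiers that differed at least 2-fold. The exceptions were IGFBP6, WNT5B and ANGPTL5. Lesion and healthy values did not overlap for 20 members, of which 16 were higher and 4 lower (FZD6, EGFR, AREG and WNT10A). The same held for 73.3% of all identifiers that differed at least 2-fold. The difference reached 2-fold in every cat for 12 higher members and for 1 lower member, FZD6. The same share over all identifiers was not computed, so nothing is read from this count. It also depends on the floor: GDF15 in Jerome and IGFN1 in Bart fell short because values under 1 FPKM were raised to 1. At the threshold, the members just inside were BMP1 at 2.0025-fold, VEGFC at 2.0205-fold and FGFR4 at 2.0293-fold, and the nearest identifiers outside, which carry no symbol, were at 1.9993-fold, 1.999-fold and 1.9984-fold. On the lower side the members closest to the threshold were FZD6 at 2.522-fold and IGFBP2 at 2.581-fold.

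**Figure D2:**
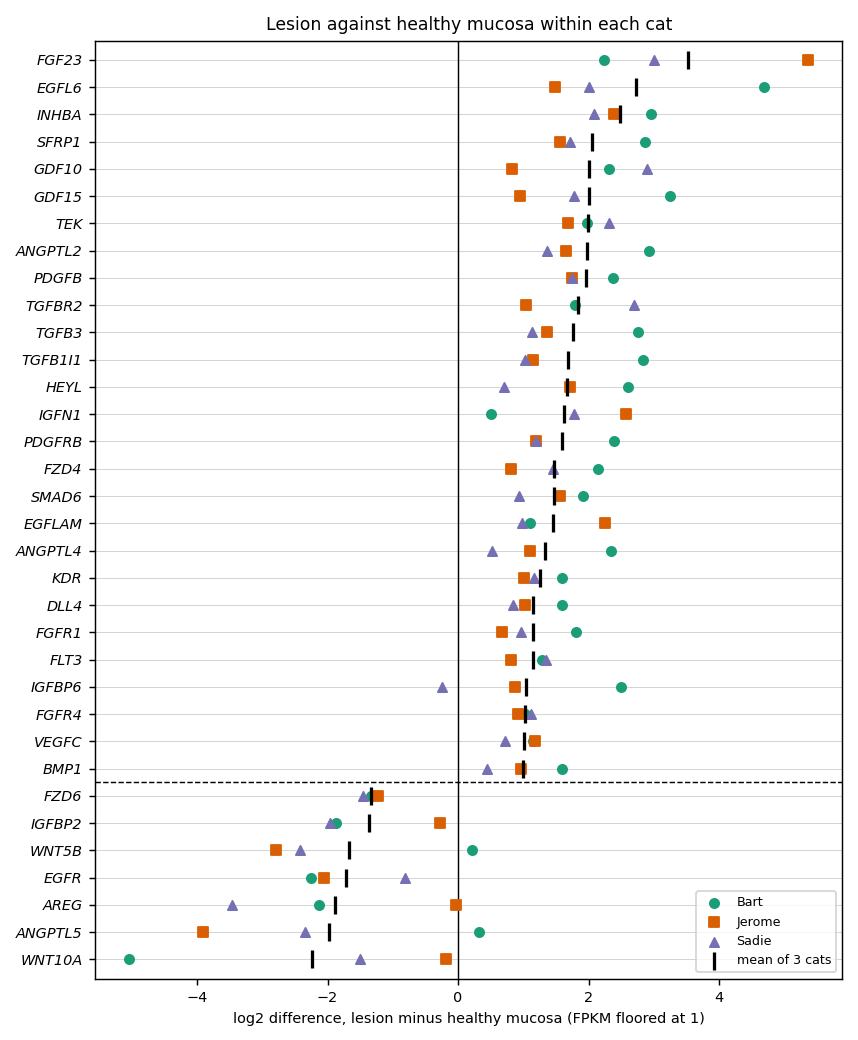
Log2 difference, lesion minus healthy mucosa, of each gene within each cat (symbols) and the mean of the 3 cats (black bar), with FPKM raised to at least 1. FGFR4 and FZD6 show nearly the same difference in each cat, and WNT10A ranges from -5.04 in Bart to -0.18 in Jerome.

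In the TGF-beta superfamily, 5 ligand or receptor genes were higher in the lesion of every cat. INHBA, which encodes the subunit of activin A, stood at 35.8, 11.9 and 5.47 FPKM in the lesions of Bart, Jerome and Sadie, and at 4.6, 2.27 and 1.29 FPKM in their healthy mucosa. Its lowest lesion value lay above its highest healthy value, and the log2 difference was 2.48 ± 0.45 (SD, n = 3 cats). GDF10, a ligand related to BMP3, measured 9.61, 6.33 and 7.72 FPKM in lesions and 1.94, 3.57 and 1.04 FPKM in healthy mucosa, in the same order of cats. It rose by a log2 difference of 2.01 ± 1.06 (SD, n = 3), and its lesion values were the most alike of these genes while the healthy values differed more. GDF15, a ligand that many tissues secrete under stress, measured 9.54, 1.93 and 3.44 FPKM in lesions. In healthy mucosa it was at 0.465, 0.142 and 0.189 FPKM, so all 3 healthy values lay under the floor, and the log2 difference of 2.0 ± 1.17 is counted from that floor.

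TGFB3, 1 of the TGF-beta ligands, measured 26.8, 5.5 and 8.69 FPKM in lesions and 3.94, 2.13 and 3.94 FPKM in healthy mucosa. TGFBR2, the receptor that binds TGF-beta ligands first, measured 129, 40.8 and 57.7 FPKM in lesions and 37.0, 19.9 and 8.96 FPKM in healthy mucosa. For both genes the groups did not overlap, with log2 differences of 1.76 ± 0.88 for the ligand and 1.84 ± 0.83 for the receptor (SD, n = 3). The cats differed in which of these genes was more different: in Bart the log2 difference was 2.76 for the ligand and 1.8 for the receptor, and in Sadie 1.14 and 2.69. The level of TGFB3 relative to TGFBR2, both in FPKM, was 0.107 in the healthy mucosa of Bart and of Jerome and 0.44 in that of Sadie.

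Inside the cell, SMAD6, an inhibitory SMAD that limits BMP signalling, measured 104, 29.1 and 11.8 FPKM in lesions and 27.5, 9.91 and 6.19 FPKM in healthy mucosa. The healthy value of Bart lay above the lesion value of Sadie, so the groups overlapped, although SMAD6 was higher in the lesion of each cat (log2 difference 1.47 ± 0.50). TGFB1I1 was at 66.6, 20.3 and 22.7 FPKM in lesions and 9.27, 9.12 and 11.1 FPKM in healthy mucosa, where the 3 cats were close to each other. BMP1 shares the name of the BMP ligands but encodes a protease that trims procollagens. It measured 115, 40.8 and 29.2 FPKM in lesions and 38.3, 20.9 and 21.3 FPKM in healthy mucosa, a log2 difference of 1.00 ± 0.57 with overlapping groups.

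Other genes of this pathway were taken from a list of 46 regulators and mediators, of which 16 had a symbol. Since symbols exist here only for genes that differed at least 2-fold in the study, these counts too describe a selected set. The same holds for every pathway and marker list below, and some genes, such as ENG, TIE1 and ROBO4, are in more than 1 list. Of the 16, 14 were higher and 2 lower on average. In limma 4 rose (GREM1, LRRC32, ACVRL1 and ENG) and 0 fell, beside 5.31% and 6.61% of all identifiers. With the cat as a block 11 rose and 0 fell, beside 12.2% and 11.1%. GREM1, a secreted BMP antagonist, measured 384, 119 and 184 FPKM in lesions and 19.9, 21.2 and 6.83 FPKM in healthy mucosa (log2 difference 3.84, adjusted p = 0.023 in limma). LRRC32, which holds latent TGF-beta on the cell surface, measured 19.6, 9.87 and 8.6 FPKM in lesions and 3.38, 2.22 and 2.54 FPKM in healthy mucosa (log2 difference 2.15, adjusted p = 0.028 in limma). ACVRL1, an endothelial receptor of the BMP branch, measured 70.6, 46.4 and 49.9 FPKM against 28.0, 20 and 18.2 FPKM, and its log2 difference was 1.34 ± 0.12 over cats. ENG, its co-receptor and also a marker of endothelium, measured 412, 223 and 154 FPKM against 98.1, 59.7 and 45.7 FPKM (log2 difference 1.91 ± 0.16).

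PDGFB, the ligand through which endothelium recruits mural cells, measured 48.6, 16.6 and 17.9 FPKM in the lesions of Bart, Jerome and Sadie and 9.38, 4.92 and 5.34 FPKM in their healthy mucosa. Its receptor PDGFRB, found on pericytes and fibroblasts, measured 206, 62.6 and 76.1 FPKM in lesions and 39.2, 27.2 and 33.2 FPKM in healthy mucosa. Neither gene overlapped between tissues, and in both the lesion of Bart stood far above the others. The log2 differences were 1.96 ± 0.36 for the ligand and 1.60 ± 0.69 for the receptor (SD, n = 3). The ratio of ligand to receptor, both in FPKM, stayed between 0.161 and 0.264 over the 6 libraries, while each gene alone varied over a wider range. In the RefSeq annotation of the cat genome (F.catus_Fca126_mat1.0), PDGFRB lies next to CSF1R with 0 coding genes between them. Of the 34 members, 15 had a neighbour with a symbol within 3 coding genes. Some pairs differed in the same direction and others in opposite directions, such as FZD6 with CTHRC1 and TEK with MOB3B. CSF1R, the macrophage colony-stimulating factor receptor and also 1 of the leukocyte markers, measured 77.4, 104 and 80.8 FPKM in lesions and 17.9, 35.7 and 20.9 FPKM in healthy mucosa. The log2 difference of CSF1R was 1.87 (adjusted p = 0.025 in limma), and its highest lesion value was in Jerome and not in Bart.

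The receptors TEK and KDR and the ligand VEGFC were higher in the lesion of every cat. TEK, the receptor of the angiopoietins, measured 60.5, 12.3 and 14.9 FPKM in lesions and 15.3, 3.83 and 3.01 FPKM in healthy mucosa. KDR, the main VEGF receptor of endothelium, measured 43.7, 13.2 and 11.1 FPKM in lesions and 14.5, 6.54 and 4.96 FPKM in healthy mucosa. For both receptors the healthy mucosa of Bart lay above both other lesions, so the groups overlapped while the differences within cats were alike (log2 1.99 ± 0.31 for TEK and 1.25 ± 0.30 for KDR). VEGFC, a ligand known for lymphatic growth, measured 41.9, 25.6 and 21.1 FPKM in lesions and 18.9, 11.3 and 12.8 FPKM in healthy mucosa. Its groups did not overlap, and the log2 difference was 1.01 ± 0.26.

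The angiopoietin-like genes among the members, which encode secreted proteins that do not bind TEK, differed in both directions by their means. ANGPTL2 measured 136, 37.9 and 48.5 FPKM in lesions and 17.9, 12 and 18.8 FPKM in healthy mucosa, with no overlap (log2 difference 1.98 ± 0.83). ANGPTL4, which inhibits lipoprotein lipase, measured 87.3, 26.7 and 14.1 FPKM in lesions and 17.1, 12.4 and 9.82 FPKM in healthy mucosa (log2 difference 1.33 ± 0.93). ANGPTL5 measured 1.25, 0.981 and 3.61 FPKM in lesions and 0.344, 15.0 and 18.2 FPKM in healthy mucosa. It was thus lower in the lesions of Jerome and Sadie and near or under the floor in both tissues of Bart, and the mean log2 difference of -1.97 had an SD of 2.14.

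DLL4, a Notch ligand of sprouting endothelium, measured 20.8, 5.17 and 5.19 FPKM in lesions and 6.85, 2.56 and 2.9 FPKM in healthy mucosa (log2 difference 1.15 ± 0.40). HEYL, a transcription factor that Notch signalling induces, measured 53.2, 9.64 and 15.7 FPKM in lesions and 8.72, 2.95 and 9.71 FPKM in healthy mucosa (log2 difference 1.67 ± 0.96). Both were higher in each lesion than in the healthy mucosa of the same cat, and in both the groups overlapped. Of 33 further Notch and hedgehog genes listed, 4 had a symbol, all higher in lesions on average. In limma 1 rose, MFNG, a glycosyltransferase that modifies Notch, beside 5.31% of all identifiers. With the cat as a block 3 rose, beside 12.2%. MFNG measured 39.4, 42.8 and 55.7 FPKM in lesions and 9.35, 18.4 and 15.9 FPKM in healthy mucosa (log2 difference 1.70, adjusted p = 0.029 in limma).

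Of 19 listed partners of vessel growth factors, 16 had a symbol, 13 higher and 3 lower on average. In limma 4 rose (PLXND1, SH2D2A, S1PR1 and ROBO4) and 1 fell (FIGF), beside 5.31% and 6.61% of all identifiers. With the block 11 rose and 2 fell, beside 12.2% and 11.1%. Nothing is read from these counts, since genes with a symbol were selected on the same difference. FIGF, the VEGF-D ligand of the same branch as VEGFC, measured 6.11, 3.51 and 2.77 FPKM in lesions and 17.8, 15.3 and 13.8 FPKM in healthy mucosa. The log2 difference of FIGF was -1.99 (adjusted p = 0.027 in limma), so the pair of ligands known for lymphatic growth differed in opposite directions in all 3 cats. S1PR1, a receptor for sphingosine-1-phosphate on endothelium and lymphocytes, measured 136, 53.4 and 68.4 FPKM against 27.1, 11 and 18.9 FPKM. ROBO4, an endothelial receptor also counted among the markers, had log2 differences of 1.69, 1.59 and 1.60 in Bart, Jerome and Sadie. Among direct partners of the members, TIE1 and NRP1 missed the threshold in limma without the block. TIE1, the co-receptor of TEK, had a log2 difference of 1.55 (adjusted p = 0.052 in limma, 0.022 with the block), and NRP1, the co-receptor of KDR, 1.86 (adjusted p = 0.096 in limma, 0.033 with the block).

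Markers of endothelium and of stroma that had a symbol were also higher in lesions. Symbols exist here only for genes that differed at least 2-fold in the study, so the markers are a selected set. Those with no symbol are missing from the sums. Of 17 endothelial markers 12 had a symbol, and their summed FPKM was 2143, 962.4 and 920.5 in the lesions of Bart, Jerome and Sadie and 477.3, 275.5 and 242.3 in healthy mucosa, which is 4.49-fold, 3.49-fold and 3.80-fold higher. All 12 were higher on average, and 4 passed limma, or 10 with the cat as a block. Of 18 fibroblast and mural cell markers 12 had a symbol, with sums of 6137, 1373 and 1580 in lesions and 1042, 516 and 624.2 in healthy mucosa, or 5.89-fold, 2.66-fold and 2.53-fold. All 12 were higher on average, and 1 passed limma, or 11 with the cat as a block. For both sets the share of all identifiers that rose was 5.31% in limma and 12.2% with the block. PDGFRB, for comparison, was 5.25-fold, 2.30-fold and 2.29-fold higher in the same cats, and TEK 3.95-fold, 3.22-fold and 4.95-fold. The part of cell content in the differences of PDGF, VEGF and TGF-beta family genes was not tested.

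**Figure D3:**
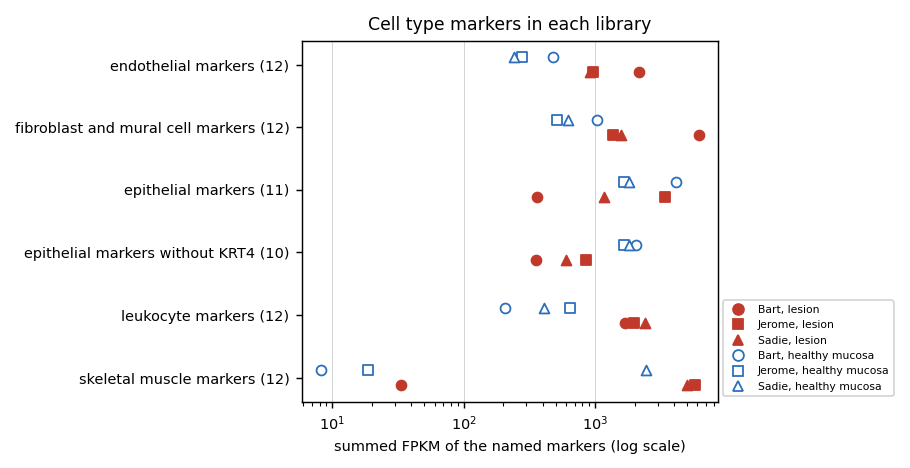
Summed FPKM of the named markers of each cell type (number of markers in brackets) in each library, on a log axis. Filled red symbols are lesions and open blue symbols healthy mucosa. Endothelial, fibroblast and leukocyte sums were higher in the lesion of every cat, and muscle sums ranged from 8.202 to 5739. The full epithelial sum was lower in the lesions of Bart and Sadie and higher in that of Jerome. Without KRT4, the only epithelial marker higher on average, the sum was lower in the lesion of every cat.

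WNT genes differed in both directions. SFRP1, a secreted protein that binds WNT ligands away from their receptors, measured 164, 17.9 and 7.0 FPKM in lesions and 22.6, 6.08 and 2.13 FPKM in healthy mucosa. The cats differed widely, and the healthy mucosa of Bart lay above the lesions of Jerome and Sadie, but within each cat the lesion was higher (log2 difference 2.05 ± 0.71). WNT10A, a ligand known for its role in teeth, skin appendages and tongue papillae, measured 1.28, 16.9 and 7.75 FPKM in lesions and 42.3, 19.1 and 21.9 FPKM in healthy mucosa. The groups did not overlap, yet the log2 difference ran from -5.04 in Bart to -0.18 in Jerome, which leaves a mean of -2.24 with an SD of 2.51. WNT5B, a ligand of the branch that does not act through beta-catenin, measured 23.4, 13.1 and 10.4 FPKM in lesions and 20.2, 90.9 and 55.5 FPKM in healthy mucosa. It was lower in the lesions of Jerome and Sadie and close to equal in Bart.

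The frizzled receptors among the members, FZD4 and FZD6, differed in opposite directions in every cat. FZD4, a receptor for WNT ligands and norrin that is known in vessels, measured 21.0, 4.76 and 3.73 FPKM in lesions and 4.74, 2.72 and 1.36 FPKM in healthy mucosa (log2 difference 1.47 ± 0.67). FZD6, a receptor known for planar polarity in epithelium, measured 17.7, 9.34 and 6.73 FPKM in lesions and 44.5, 21.7 and 18.5 FPKM in healthy mucosa. Its log2 differences of -1.33 (Bart), -1.22 (Jerome) and -1.46 (Sadie) were among the most even of all members. The level of FZD4 relative to FZD6, both in FPKM, was 1.18, 0.51 and 0.554 in lesions and 0.106, 0.125 and 0.0737 in healthy mucosa, with no overlap and a change of 11.1-fold, 4.07-fold and 7.52-fold within cats. In the same way SFRP1 stood at 128, 1.06 and 0.903 times the level of WNT10A in lesions, and at 0.534, 0.318 and 0.0971 times in healthy mucosa. FZD4 and SFRP1 were selected as higher and FZD6 and WNT10A as lower in this same contrast. Ratios that were higher in lesions on average therefore followed from the selection and are only a description.

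Of 48 further WNT genes listed, 10 had a symbol, 3 higher and 7 lower on average. In limma TCF4 and WISP2 rose and KREMEN1 fell, which is 2 and 1, beside 5.31% and 6.61% of all identifiers. With the cat as a block 2 rose and 3 fell, beside 12.2% and 11.1%. KREMEN1, a receptor that takes part in WNT inhibition by Dickkopf proteins, measured 20.4, 23.4 and 19.6 FPKM in lesions and 53.9, 60.4 and 93.5 FPKM in healthy mucosa (log2 difference -1.68, adjusted p = 0.023 in limma). WISP2, a matrix-associated protein named as a WNT target, measured 43.6, 13.7 and 16.5 FPKM in lesions and 0.855, 5.49 and 2.88 FPKM in healthy mucosa. Its adjusted p was 0.048 in limma and 0.073 with the block. TCF4 measured 27.5, 16.0 and 16.1 FPKM in lesions and 5.91, 5.0 and 4.86 FPKM in healthy mucosa (adjusted p = 0.023 in limma). The symbol TCF4 belongs to an E-protein transcription factor, and the WNT effector once known by that name is TCF7L2, so its place in the list rests on the older name.

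EGFR and those of its ligands that had a symbol (AREG, HBEGF and EPGN) were lower in lesions on average. Ligands that differed less than 2-fold carry no symbol here and were not seen. EGFR measured 4.72, 3.9 and 2.89 FPKM in the lesions of Bart, Jerome and Sadie and 22.5, 16.2 and 5.06 FPKM in their healthy mucosa (log2 difference -1.71 ± 0.78, no overlap). AREG, which encodes the EGFR ligand amphiregulin, measured 33.6, 35.5 and 5.87 FPKM in lesions and 148, 36.2 and 64.7 FPKM in healthy mucosa. The groups did not overlap, but in Jerome both tissues were nearly equal, and the log2 differences were -2.13, -0.03 and -3.46. The level of AREG relative to EGFR, in FPKM, was higher in the lesion than in the healthy mucosa of Jerome (9.11 and 2.23), lower in Sadie (2.03 and 12.8) and close in Bart (7.13 and 6.56).

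Of 33 further EGF and FGF pathway genes listed, 8 had a symbol, 3 higher and 5 lower on average. In limma 0 rose and 2 fell (ERBB2 and LRIG3), beside 5.31% and 6.61% of all identifiers. With the block 2 rose and 3 fell, beside 12.2% and 11.1%. ERBB2, the co-receptor of EGFR, measured 10.5, 22.6 and 14.7 FPKM in lesions and 58.8, 73.1 and 82.4 FPKM in healthy mucosa with a log2 difference of -2.22 (adjusted p = 0.022 in limma). LRIG3, of a family of membrane proteins that act on EGF receptors, measured 6.42, 3.12 and 2.64 FPKM in lesions and 16.0, 9.97 and 14.3 FPKM in healthy mucosa. The EGFR ligand HBEGF measured 56.3, 25.6 and 3.54 FPKM in lesions and 147, 24.6 and 37.3 FPKM in healthy mucosa (adjusted p = 0.40 in limma), so like AREG it was nearly equal in the tissues of Jerome. EPGN, the EGFR ligand epigen, was listed at 0 in the lesions of Bart and Sadie and measured 1.31 FPKM in that of Jerome, against 6.35, 2.78 and 1.56 FPKM in healthy mucosa (adjusted p = 0.12 in limma). In the RefSeq annotation AREG and EPGN lie near each other, with 1 coding gene between them, while some other members differed in the opposite direction to a neighbour.

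Most epithelial markers with a symbol were lower in lesions on average, as were EGFR, WNT10A and FZD6. These markers too carry a symbol only because they differed at least 2-fold in the study. Of 20 such markers 11 had a symbol, 10 of them lower and 1 higher on average. In limma 4 fell, beside 6.61% of all identifiers. Their summed FPKM was 361.9, 3389 and 1166 in lesions and 4134, 1669 and 1819 in healthy mucosa. That is 0.0875-fold in Bart, 2.03-fold in Jerome and 0.641-fold in Sadie, so the full sum was higher in the lesion of Jerome. KRT4 was the 1 marker that was higher on average. It was listed at 0 in the healthy mucosa of Jerome and Sadie and made up most of the sum in the lesion of Jerome. The sums that follow therefore leave out the only marker that went the other way. Without KRT4, left out after its values were seen, the sums were 352.9, 855.4 and 596.6 in lesions and 2045, 1669 and 1819 in healthy mucosa, or 0.173-fold, 0.513-fold and 0.328-fold. EGFR was 0.210-fold, 0.240-fold and 0.570-fold and FZD6 0.398-fold, 0.430-fold and 0.365-fold in the same cats. WNT10A was 0.0304-fold, 0.881-fold and 0.354-fold. The order of cats in the sum without KRT4 was shared by WNT10A but not by EGFR or FZD6. Among lesions EGFR and FZD6 were highest in Bart, where the epithelial sum was lowest. The part of epithelial content in these differences was not tested.

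FGF23 had the highest mean difference of all members. It encodes a hormone that is made mainly in bone and acts on phosphate handling through FGF receptors with a Klotho co-receptor. FGF23 measured 34.7, 41.2 and 8.06 FPKM in lesions and 7.43, 0.785 and 0.192 FPKM in healthy mucosa. The groups did not overlap, although the lowest lesion (Sadie) was close to the highest healthy value (Bart), and the log2 difference was 3.53 ± 1.63 with the values of Jerome and Sadie counted from the floor. FGFR1, a receptor for many FGFs, measured 66.4, 26.3 and 28.4 FPKM in lesions and 19.0, 16.4 and 14.5 FPKM in healthy mucosa, where the cats were close together (log2 difference 1.15 ± 0.59). FGFR4, another receptor of the family, measured 4.57, 5.03 and 7.5 FPKM in lesions and 2.26, 2.66 and 3.44 FPKM in healthy mucosa. It was 1 of the 4 higher members whose highest lesion value was not in Bart, and its log2 difference of 1.02 ± 0.10 had the smallest SD of the 34 members.

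The IGF binding proteins among the members, which hold IGF ligands outside the cell, differed in opposite directions by their means. IGFBP6, which prefers IGF2, measured 228, 90.6 and 66.2 FPKM in lesions and 40.5, 49.5 and 77.9 FPKM in healthy mucosa, so it was higher in the lesions of Bart and Jerome and lower in that of Sadie (log2 difference 1.04 ± 1.37). IGFBP2 measured 11.6, 66.4 and 50.2 FPKM in lesions and 42.3, 80.5 and 195 FPKM in healthy mucosa and was lower in the lesion of each cat (log2 difference -1.37 ± 0.94). The groups overlapped for both. The level of IGFBP6 relative to IGFBP2, in FPKM, was higher in every lesion, at 19.7, 1.36 and 1.32, than in healthy mucosa, at 0.958, 0.615 and 0.40. IGFBP6 was selected as higher and IGFBP2 as lower, so a ratio higher in lesions on average followed from the selection. In Sadie both genes were lower in the lesion, at 0.849-fold and 0.258-fold. Of 29 listed genes of IGF and other growth factor signals 8 had a symbol, 4 higher and 4 lower on average. In limma CSF1R alone rose and 0 fell, beside 5.31% and 6.61% of all identifiers. With the block 4 rose and 0 fell, beside 12.2% and 11.1%.

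The remaining members share only the start of a symbol with a growth factor or sit on leukocytes. EGFL6 measured 25.8, 4.27 and 4.0 FPKM in lesions and 0.75, 1.52 and 0.445 FPKM in healthy mucosa, with no overlap (log2 difference 2.72 ± 1.72). Its healthy values in Bart and Sadie lay under the floor. EGFLAM measured 9.91, 4.75 and 3.33 FPKM in lesions and 4.58, 0.899 and 1.69 FPKM in healthy mucosa, and its groups overlapped. IGFN1 measured 1.42, 5.93 and 3.44 FPKM in lesions and 0.362, 0.149 and 0.196 FPKM in healthy mucosa. The muscle marker sums of the same libraries, in the same order, were 33.22, 5739 and 4994 in lesions and 8.202, 18.78 and 2451 in healthy mucosa. The part of muscle content in the difference of IGFN1 was not tested.

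FLT3, a receptor of haematopoietic progenitors and dendritic cells, measured 3.22, 4.6 and 3.37 FPKM in lesions and 1.33, 2.62 and 1.32 FPKM in healthy mucosa (log2 difference 1.15 ± 0.29, no overlap). All 12 leukocyte markers had a symbol and were higher on average. In limma 8 passed, or 12 with the cat as a block, beside 5.31% and 12.2% of all identifiers. Their summed FPKM was 1689, 1973 and 2415 in lesions and 205.5, 640.9 and 410.3 in healthy mucosa. In healthy mucosa both FLT3 and the leukocyte sum were highest in Jerome, while in lesions FLT3 was highest in Jerome and the leukocyte sum in Sadie. The part of leukocyte content in its difference was not tested.

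The higher members shared a pattern over cats. Their selection used a difference that includes the values of Bart, so the counts that follow only describe a selected set. The identifiers set beside them were also at least 2-fold higher. Each count rests on 1 library per cat and tissue, and the genes are not replicates. The lesion of Bart had the highest of the 3 lesion values in 23 of 27 higher members, beside 53.6% of all identifiers at least 2-fold higher, and in 21 of 27 it was at least 2-fold above both other lesions, beside 27.9%. The 4 exceptions were FGF23, IGFN1 and FLT3, highest in Jerome, and FGFR4, highest in Sadie. Healthy mucosa of Bart was also the highest of its tissue in 19 of 27, beside 36.7%. In log2 units, Bart lay above the mean of the other cats by a median of 1.67 in lesions and 0.65 in healthy mucosa for the higher members, beside 0.36 and -0.10 for the 2257 identifiers. The offset was above 0 in both tissues in 20 of 27 members, or 74.1%, beside 38.1%.

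**Figure D4:**
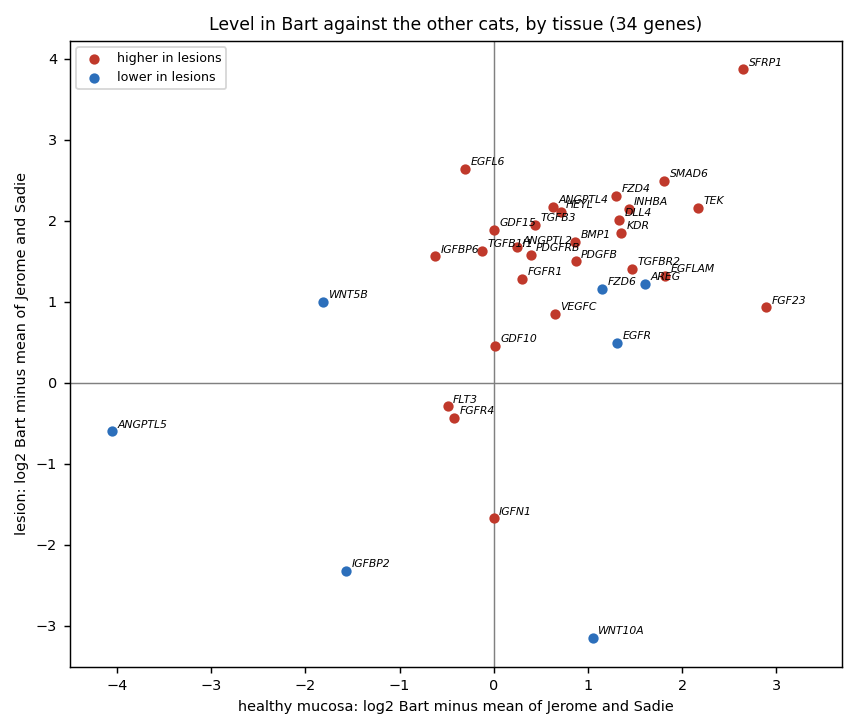
Log2 level in Bart minus the mean of Jerome and Sadie, in healthy mucosa (horizontal axis) and in lesions (vertical axis), for the 34 genes. Red points are genes higher in lesions and blue points genes lower in lesions. SFRP1, SMAD6 and TEK lie above 0 by more than 1.8 in both tissues.

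Among lesions the offset was largest for SFRP1, at 3.87 beside 2.65 in healthy mucosa, and it reached 2.49 and 1.81 for SMAD6 and 2.16 and 2.17 for TEK. The median log2 difference of the higher members came to 2.23 for Bart, 1.18 for Jerome and 1.20 for Sadie, while that of all identifiers at least 2-fold higher was 1.87, 1.47 and 1.54. For the lower members it was -1.87, -1.22 and -1.96, beside -1.82, -1.51 and -2.04. The lesion of Bart was also the highest lesion in 12 of 12 fibroblast and mural cell markers and in 11 of 12 endothelial markers, and its summed epithelial markers were the lowest of the 6 libraries. With 1 library per cat and tissue these offsets allow no test, and animal, biopsy and library cannot be told apart.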

How the data were processed

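Sequenced were poly-adenylated RNA libraries, made with a strand-specific kit from matched biopsies of 3 cats, 1 lesion and 1 healthy sample each. The authors deposited FPKM values per library from Cuffnorm, for 21529 Ensembl identifiers, already divided by transcript length and library size. The submitters' processing notes name bcl2fastq, HISAT and Cufflinks, without versions, with the genome build not given in the sources used here. The labels and the methods disagree on read length and on whether reads were paired. No count model was used, whole reads were not recovered because gene lengths are absent, and the depth is unknown.

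The identifiers carry no symbols. Symbols came from 1981 rows of the study's supplementary list, whose sorted tissue values, raised to at least 1, each matched exactly 1 identifier to 5 significant digits, and 0 matched with tissues swapped. A further 328 rows, which hold the strongest falls, were left out. The list's fold changes were not used. RefSeq (F.catus_Fca126_mat1.0) served for gene order by symbol, with 34 of 34 members found, and its identifiers matched none of the deposited ones.

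For each identifier that reached 1 FPKM in 3 or more libraries, log2 of the values (minimum set to 1) entered a two-sided test in limma (version 3.58.1, R 4.3.3, tissue as the only term, mean-variance trend, Benjamini-Hochberg adjustment), after the script was tested on simulated data. Folds and ratios were computed in Python 3.11.15 with numpy 2.4.6 and pandas 2.3.3, and plots drawn with matplotlib 3.10.9. Libraries pair by animal in the labels. Deviations from tissue means correlated within a cat at 0.49 (Bart), 0.20 (Jerome) and 0.41 (Sadie), and between cats at -0.44 to 0.27. The lesion of Jerome correlated more with the healthy mucosa of Sadie (0.27) than with its own (0.20). Because the labels pair the libraries, counts of calls are also given with the cat as a replicate block where they change. The adjusted p of a single gene is from the fit without the block unless stated. Alternatives were other pseudocounts, no filter, quantile normalization, median-ratio scaling, no trend, and leaving out each library or cat. The members and all gene and marker lists were chosen with earlier results of these data known. Every member is named; from each pathway list the genes with the smallest p (at most 4) and direct partners fixed by name were eligible to be named with values, and markers only where listed at 0.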

Additional observations from a re-analysis of the deposited data

How the results depend on the processing

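No member changed direction under any alternative. Member calls (higher and lower, main 1 and 0) became 17 and 2 with the replicate block, 3 and 0 on log2(FPKM + 1), 2 and 0 on log2(FPKM + 0.1), and 0 and 0 with no filter or with quantile normalization. Leaving out 1 library or cat gave 0 to 7 higher and 0 to 2 lower, also with the cat as a block, where the fits without Bart gave 5 and 1 and those without Jerome or Sadie 0 and 0. Calls over all 13327 identifiers moved too, from 707 higher and 881 lower to 2136 in all without Bart, 0 without Jerome or Sadie, 1 and 9 without the lesion or the healthy mucosa of Sadie, 655 and 132 without those of Jerome, and 1032, 97 and 0 with the block and without Bart, Jerome or Sadie. Pathway genes beyond the members (main 12 and 4 of 62 with a symbol) became 33 and 8 with the replicate block and 1 and 2 with no filter, and leaving out 1 library or cat gave 0 to 26 and 0 to 7. Leaving out Bart gave 26 and 7, leaving out Jerome or Sadie 0 and 0. Leaving out the lesion of Jerome gave 2 and 2, that of Sadie 0 and 0, the healthy mucosa of Jerome 1 and 0 and that of Sadie 0 and 0. The cause was not tested, beyond the fewer libraries in each such fit. The fits with the block and without 1 cat were chosen after seeing the data. The counts of members with 1 direction in every cat (31) moved to 30 with median-ratio scaling and to 31 to 33 without a cat, and the 23 with the highest lesion value in Bart did not move under another pseudocount or scaling.

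With 3 cats and 1 library per tissue, the animal and the biopsy cannot be separated. Reads per library are unknown, so the error of members with a value under 1 FPKM could not be given. These were FGF23, EGFL6, GDF15, IGFN1, EGFLAM and ANGPTL5, and their log2 differences are counted in part from the floor. On log2(FPKM + 0.1) the difference was 4.19 for FGF23, 3.09 for EGFL6, 1.44 for EGFLAM and -1.5 for ANGPTL5. It moved most for GDF15, from 2.0 to 3.59, and for IGFN1, from 1.62 to 3.3. GDF15 and IGFN1 were the 2 members that passed limma on that scale. Related genes under 2-fold, and those among the strongest falls, carry no symbol here and were not analysed.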
